A study of Homo sapiens with 6 samples.

Results

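T24 is an established line of human bladder carcinoma cells, and the libraries described here are the 3 that were made from it: siRNA-1 and siRNA-2, each at 0.04 OD for 48 h, and a negative control kept for the same 48 h. The series title names HSF1, but the siRNAs' target is not given in the labels, and the kind of negative control (an siRNA or not) is not stated either. Each treatment gave 1 library, and separate cultures are not stated for any of them. The other 3 of the 6 libraries of the series, given the same treatments, came from UM-UC-3, another established bladder carcinoma line, and are used here for the spread between siRNA libraries and for a comparison of the lines. Of 26835 genes listed in the series, 22793 were listed in the T24 files, and 13162 of these had a mean of at least 1 CPM (a gene's reads as a share of all gene-assigned reads, scaled to a common total) over the 3 T24 libraries. All 13162 were compared between the siRNA libraries and the control. A gene could reach this minimum through a high level in the control alone, as KRT17 did.

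HSF1 is the transcription factor that switches on genes for cytosolic chaperones, the proteins that help others fold, when proteins unfold. It binds DNA as a trimer at heat shock elements, repeats of the short unit GAA in alternating orientation. In tumour cells HSF1 is also known to sustain genes of cell division, metabolism and adhesion that heat does not induce. Other stress pathways have regulators of their own: ATF6 and XBP1 for the endoplasmic reticulum (ER), ATF4 for amino acid shortage, and the interferon pathway for viral RNA.

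The T24 control held 23709089 gene-assigned reads, and the siRNA libraries 27634857 (siRNA-1) and 26746754 (siRNA-2). The epithelial keratin KRT8 had 719 and 492 CPM with the siRNAs, against 795 CPM in the control. KRT18 had 335 CPM with siRNA-1 and 285 CPM with siRNA-2, against 327 CPM in the control. Of the other urothelial and epithelial markers, KRT7 had 1.92 and 5.12 CPM with the siRNAs, against 7.63 CPM in the control, while EPCAM, GATA3 and UPK1B had at most 0.253 CPM in any T24 library. Among markers of other cell types that the T24 files list (blood, endothelium, fibroblasts and smooth muscle), MYH11 alone reached a mean of 1 CPM. This smooth muscle gene had 1.48 CPM with siRNA-1 and 1.496 CPM with siRNA-2, against 2.07 CPM in the control. PECAM1 had 0.181 and 0.337 CPM with the siRNAs and 1.18 CPM in the control. The median difference of all 13162 genes from the control, on the log2(CPM + 1) scale used throughout, was 0.13 for siRNA-1, and 0.03 for siRNA-2. With TMM scaling, which sets the bulk of genes equal between libraries, both medians were 0.00. Differences with siRNA-1 are therefore to be read against 0.13.

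HSF1 itself (ENSG00000185122) had 20.3 and 22.7 CPM with the siRNAs, against 106 CPM in the control. Both siRNA libraries were below the control, at 19.1% of it (95% counting interval of the ratio 0.174 to 0.21) and at 21.3% (0.195 to 0.233). The mean difference was -2.26 ± 0.34 (SE), with adjusted p = 0.152 in limma-trend and 1.31e-05 in DESeq2. The arginine methyltransferase PRMT5, which the title also names, had 73.1 CPM with siRNA-1 and 47.4 CPM with siRNA-2, against 40.6 CPM in the control. The histone methyltransferase scaffold WDR5 had 144 and 164 CPM with the siRNAs, against 111 CPM in the control. Neither passed the threshold of 0.05 by limma-trend (adjusted p = 0.565 and 0.506) or DESeq2 (0.767 and 0.804), and both were higher than the control with both siRNAs.

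No gene passed the threshold in limma-trend after Benjamini-Hochberg adjustment (0 of 13162, 0.0%), with the smallest adjusted p at 0.0634, that of KRT17. KRT17 reached the minimum mean through the control alone. It was nearly absent from both siRNA libraries, which by itself keeps those libraries close together. At an unadjusted p under 0.05 there were 720 genes higher than the control (5.47%) and 980 lower (7.45%). On the recovered reads edgeR's quasi-likelihood test called 0 genes (0.0%), with 1551 at an unadjusted p under 0.05. DESeq2 called 315 (2.39%), 44 of them higher and 271 lower. The labels give both lines the same siRNA-1 and siRNA-2, and limma-trend with a replicate block for the siRNA number, which sets aside what each siRNA did alike in both lines, called 752 genes, 167 higher and 585 lower. Most genes whose adjusted p is printed here were named for the size of their difference in these libraries. Among all of them, HSF1 (0.000721), ERO1B (0.00122), DDIT4, IFI44, FOS, TPX2, NRP2, SLC16A9, MT-ND5, MT-ND6 and KRT17 passed with the block in limma-trend. PRMT5 (0.361), WDR5 (0.367) and HSP90AA1 (0.0971) did not pass by that fit. The p-values without the block rest only on how far the siRNA libraries of a line lay from each other, which may be technical. Those with the block rest on what remains of that spread, which is less to judge by.

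Genes were therefore described by their value in each library. A gene is called 2-fold here when it lay at least 1 log2 unit from the control in both siRNA libraries, in the same direction. The added 1 CPM understates the fold of low genes. By this description, which is no test, 188 genes were higher (1.43% of those tested) and 497 were lower (3.78%). Either siRNA alone gave more: siRNA-1 had 970 genes 2-fold higher (7.37%) and 1262 lower (9.59%), and siRNA-2 had 469 higher (3.56%) and 963 lower (7.32%). The interval of counting error excluded no change for each of the 188 and 497 genes with both siRNAs. This follows largely from their choice at 2-fold, and the interval covers neither culture nor handling. Regardless of size, 5187 genes were above the control with both siRNAs (39.4%), 3904 were below it with both (29.7%), and 4071 lay on opposite sides. With TMM scaling the first 2 of these counts were 4556 and 4527. Both siRNAs share the 1 control library, so anything particular to that library moves both comparisons the same way, and the effect of HSF1 siRNA cannot be told apart from it. DESeq2 called 44 of the 188 higher genes and 269 of the 497 lower ones.

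**Figure D1:**
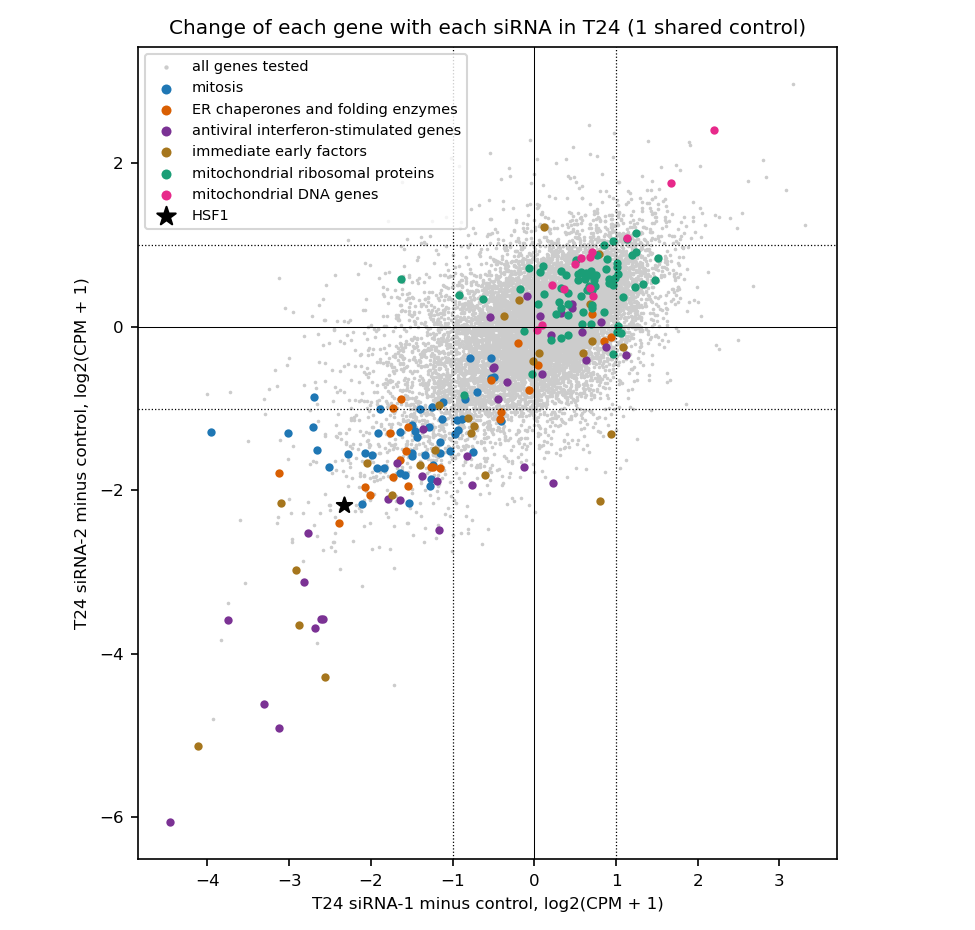
Each point is 1 of 13162 genes, placed by its difference from the T24 control with siRNA-1 (x axis) and with siRNA-2 (y axis), both in log2(CPM + 1), with dotted lines at a 2-fold difference. Members of 6 gene lists are coloured and HSF1 is a star, at -2.33 and -2.18. Of the coloured genes the lowest are antiviral genes and immediate early factors, and the mitosis list lies wholly in the lower left.

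Cytosolic heat shock proteins, the genes HSF1 is best known for, lay mostly below the control, but not by 2-fold with both siRNAs. Of 27 members of the list 15 were lower with both siRNAs and 2 were higher, and 0 reached 2-fold in either direction with both. Of all genes 29.7% were lower with both. The list's medians were -0.17 (siRNA-1) and -0.22 (siRNA-2), or -0.28 and -0.255 with TMM scaling. By limma-trend or DESeq2 0 members passed. In UM-UC-3 20 of the 27 were lower with both siRNAs and 3 higher, at medians of -0.22 and -0.51. HSP90AA1, the stress-inducible HSP90, had 1264 CPM with siRNA-1 and 1291 CPM with siRNA-2, against 2374 CPM in the control, or 53.2% and 54.4% of the control. It was the member furthest below the control with both siRNAs, at -0.89 ± 0.33 (SE), with adjusted p = 0.356 in limma-trend. HSP90AB1, its constitutive partner, was low in siRNA-1 alone, with 1215 and 3773 CPM with the siRNAs, against 3429 CPM in the control. HSPA8, the constitutive HSP70, likewise had 807 CPM with siRNA-1 and 1823 CPM with siRNA-2, against 1626 CPM in the control. The nucleotide exchange factor HSPH1 had 300.1 and 222 CPM with the siRNAs, against 372 CPM in the control and BAG3, which links HSP70 to autophagy, had 36.0 CPM with siRNA-1 and 44.7 CPM with siRNA-2, against 55.3 CPM in the control. The inducible HSPA1A had 81.4 and 51.2 CPM with the siRNAs, against 86.6 CPM in the control, so it was close to the control with siRNA-1. CDC37, which brings kinases to HSP90, was higher with both, with 267 CPM with siRNA-1 and 306 CPM with siRNA-2, against 184 CPM in the control. HSP90 and HSP70 genes have near-identical copies, which makes their counts uncertain. Of the 4 heat shock factors and their binding protein tested, HSF1 and HSF4 were lower with both siRNAs, and 0 were higher (list medians -0.37 and -0.46). HSF2 had 26.1 and 17.6 CPM with the siRNAs, against 24.1 CPM in the control. HSF4, a factor best known from the eye lens, had 2.57 CPM with siRNA-1 and 2.73 CPM with siRNA-2, against 4.22 CPM in the control. HSF1 alone of the 4 was at least 2-fold lower.

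Heat shock elements are shown because HSF1 binds them. The element was searched as GAANNTTCNNGAA or TTCNNGAANNTTC, on both strands, in RefSeq promoters of build GRCh38.p14, each 250 bases before to 50 after a gene's start. It was present in 172 of 35116 promoters (0.49%). Of the 24 tested members that could be matched to a promoter, 8 held it, and 4 of these 8 were lower with both siRNAs, against 11 of the 16 without it. The sites follow, 5′ to 3′ on the strand that reads the element, with the element in capitals and 5 bases on each side. The coordinates are those of the element.
HSP90AA1, chr14:102087120-102087132, minus strand: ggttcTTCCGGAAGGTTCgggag
HSP90AB1, chr6:44247778-44247790, plus strand: gcaggTTCTGGAAGATTCatggg
HSP90AB1, chr6:44247831-44247843, plus strand: gattgTTCTGGAAGCTTCtggat
HSPA8, chr11:123062354-123062366, minus strand: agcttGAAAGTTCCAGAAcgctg
HSPA8, chr11:123062179-123062191, minus strand: gccccTTCTGGAAGGTTCtaaga
HSPD1, chr2:197500073-197500085, minus strand: gcattTTCTGGAAAGTTCtggaa
DNAJA1, chr9:33025276-33025288, plus strand: gggcgGAACTTTCCAGAAcgctc
DNAJB6, chr7:157336873-157336885, plus strand: gccgaGAACCTTCGCGAAggtgg
CHORDC1, chr11:90223097-90223109, minus strand: gaccgGAAAATTCGCGAAggttc
SERPINH1, chr11:75562177-75562189, plus strand: caactTTCCAGAAGTTTCtcggg

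HSPD1 and CHORDC1 each held another match, overlapping the one shown, on the opposite strand. Among the holders, HSP90AA1, DNAJB6, HSPD1 and SERPINH1 were the ones lower with both siRNAs. The mitochondrial chaperonin HSPD1 had 677 and 754 CPM with the siRNAs, against 792 CPM in the control. DNAJB6, a co-chaperone that holds back aggregation, had 633 CPM with siRNA-1 and 556 CPM with siRNA-2, against 826 CPM in the control. DNAJA1, another co-chaperone, lay above the control with siRNA-1 and below it with siRNA-2, with 678 and 360.5 CPM with the siRNAs and 488 CPM in the control. A match is a description of the letters and does not show binding. The upstream promoter of HSP90AA1 (250 bases, chr14:102087045-102087294, minus strand, 1 of 2 starts in the table) is given whole, since this member lay furthest below the control with both siRNAs.
HSP90AA1: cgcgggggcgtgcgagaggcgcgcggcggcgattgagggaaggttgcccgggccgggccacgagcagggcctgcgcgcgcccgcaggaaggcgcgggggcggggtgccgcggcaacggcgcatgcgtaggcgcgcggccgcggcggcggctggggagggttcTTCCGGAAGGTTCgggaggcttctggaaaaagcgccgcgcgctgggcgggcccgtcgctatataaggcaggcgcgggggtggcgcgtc

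ER chaperones, which fold secreted and membrane proteins, lay further below the control than the list of cytosolic ones. That list is not cytosolic throughout, as it holds the mitochondrial HSPD1 and the ER protein SERPINH1. Of 24 members 20 were lower with both siRNAs, 13 of them at least 2-fold, and 1 was higher. The medians were -1.40 (siRNA-1) and -1.26 (siRNA-2). By DESeq2 13 of the 24 were called lower and 0 higher, against 271 and 44 of all 13162 genes, and by limma-trend 0 passed. Of all genes 3.78% were at least 2-fold lower with both siRNAs, a share that the later lists' counts are also to be read against. The thiol oxidase ERO1B had 13.9 and 13.8 CPM with the siRNAs, against 77.1 CPM in the control, at a mean difference of -2.39 ± 0.33 (SE), with adjusted p = 0.132 in limma-trend. PDIA4, a disulfide isomerase, had 475 CPM with siRNA-1 and 460.4 CPM with siRNA-2, against 1920.5 CPM in the control. HSP90B1, the HSP90 of the ER, had 759 and 820.3 CPM with the siRNAs, against 3185 CPM in the control. In each of these the siRNA libraries lay close together and far below the control. HSPA5, the main HSP70 of the ER, had 2138 CPM with siRNA-1 and 2167 CPM with siRNA-2, against 6698 CPM in the control. Its cofactor DNAJB11 had 53.4 and 49.7 CPM with the siRNAs, against 179.6 CPM in the control. HYOU1, its exchange factor, had 156 CPM with siRNA-1 and 396 CPM with siRNA-2, against 1369 CPM in the control. It was the member on which the siRNAs differed most, at -3.12 with siRNA-1 and -1.79 with siRNA-2. The lectin chaperone CALR had 809 and 1349 CPM with the siRNAs, against 2688 CPM in the control. Its membrane-bound relative CANX had 782 CPM with siRNA-1 and 588 CPM with siRNA-2, against 2276 CPM in the control. CNPY2 was the member above the control with both, with 4.34 and 2.65 CPM with the siRNAs, against 2.28 CPM in the control.

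The ER stress element is shown for the members that hold it because it is the site ATF6 is known to use. It was searched as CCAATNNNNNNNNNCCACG on both strands, and 27 of 35116 RefSeq promoters held it (0.0769%). Of the 22 ER chaperone genes that could be matched to a promoter, 7 held it, and all 7 were lower with both siRNAs, as were 12 of the 15 without it. The element is in capitals with 5 bases on each side, written 5′ to 3′ on its own strand (GRCh38.p14).
HSPA5, chr9:125241391-125241409, minus strand: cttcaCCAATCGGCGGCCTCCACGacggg
HSP90B1, chr12:103930216-103930234, plus strand: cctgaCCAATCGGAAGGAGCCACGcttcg
HSP90B1, chr12:103930321-103930339, minus strand: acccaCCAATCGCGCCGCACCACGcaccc
CALR, chr19:12938384-12938402, minus strand: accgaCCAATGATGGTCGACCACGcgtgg
CANX, chr5:179698778-179698796, plus strand: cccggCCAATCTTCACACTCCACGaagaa
PDIA6, chr2:10812853-10812871, minus strand: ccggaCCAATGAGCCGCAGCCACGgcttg
CRELD2, chr22:49918554-49918572, minus strand: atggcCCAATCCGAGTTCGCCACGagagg
ERO1B, chr1:236282183-236282201, plus strand: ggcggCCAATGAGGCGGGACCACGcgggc

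CRELD2, a secreted stress protein, had 57.9 CPM with siRNA-1 and 41.5 CPM with siRNA-2, against 138 CPM in the control. The isomerase PDIA6 had 185 and 312 CPM with the siRNAs, against 576 CPM in the control. The rest of the secretory route did not follow the chaperones as a whole. Of 14 ER stress sensors and degradation genes 6 were lower with both siRNAs and 1 was higher, and the median was 0.06 with siRNA-1 (-0.08 with TMM scaling) and -0.84 with siRNA-2. SEL1L, a scaffold of ER-associated degradation, was at least 2-fold lower with both, with 132 CPM with siRNA-1 and 114 CPM with siRNA-2, against 319 CPM in the control. XBP1 was lower with both siRNAs, slightly with siRNA-1, with 176 and 45.5 CPM with the siRNAs, against 197 CPM in the control. The sensor kinase EIF2AK3 lay on opposite sides of the control, with 53.3 and 12.1 CPM with the siRNAs and 30.7 CPM in the control. Of 21 translocation and signal peptide genes 8 were higher and 5 lower with both (medians 0.21 and -0.02, the first 0.08 and the second -0.06 with TMM scaling), and of 31 ER to Golgi genes 4 were higher and 7 lower (0.19 and -0.17).

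Stress regulators around ATF4, the transcription factor of amino acid shortage, were lower in a similar way. Of 18 members 17 were lower with both siRNAs, 9 of them at least 2-fold, and 0 were higher, with medians of -1.23 (siRNA-1) and -1.38 (siRNA-2). DESeq2 called 7 lower and 0 higher, against 271 and 44 of all 13162 genes. ATF4 itself had 471 CPM with siRNA-1 and 308 CPM with siRNA-2, against 946 CPM in the control. JDP2, a repressor of the AP-1 family, had 1.12 and 1.76 CPM with the siRNAs, against 15.6 CPM in the control. The glutathione-degrading enzyme CHAC1 had 26.5 CPM with siRNA-1 and 17.3 CPM with siRNA-2, against 141 CPM in the control. The stress cytokine GDF15 had 40.3 and 62.9 CPM with the siRNAs, against 281 CPM in the control. DDIT4, an inhibitor of the growth kinase mTORC1, had 27.8 CPM with siRNA-1 and 26.7 CPM with siRNA-2, against 131 CPM in the control. Of these DDIT4 had the smallest adjusted p, 0.115 in limma-trend and 3.78e-07 in DESeq2. ATF5 was the member on opposite sides, with 37.8 and 18.3 CPM with the siRNAs and 26.9 CPM in the control. The ATF4 site TGATGNAA was in 3.62% of promoters and in those of 4 of 16 members, JDP2, CHAC1, ATF3 and CEBPG, all lower with both. The other 12 had 11 lower with both.

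Enzymes of amino acid and folate-dependent carbon synthesis split. Of 20 tested 14 were lower with both siRNAs, 6 at least 2-fold, and 6 were higher, with medians of -0.39 and -0.63. PHGDH, the first enzyme of serine synthesis, had 71.6 and 62.3 CPM with the siRNAs, against 407 CPM in the control. PSAT1, the next, had 157 CPM with siRNA-1 and 235 CPM with siRNA-2, against 718 CPM in the control. Asparagine synthetase ASNS had 1.38 and 1.83 CPM with the siRNAs, against 12.4 CPM in the control. CBS, which makes cystathionine, had 7.82 CPM with siRNA-1 and 8.56 CPM with siRNA-2, against 31.7 CPM in the control. Among 16 amino acid transporters 10 were lower and 5 higher with both (medians -0.27 and -0.62). The cystine transporter SLC7A11 had 44.2 and 65.0 CPM with the siRNAs, against 319 CPM in the control. SLC1A4, a carrier of serine and alanine, had 9.34 CPM with siRNA-1 and 6.80 CPM with siRNA-2, against 47.2 CPM in the control. Of 22 cytosolic aminoacyl-tRNA synthetases 11 were lower and 7 higher (medians -0.31 and -0.25). The cysteine enzyme CARS had 61.2 and 78.2 CPM with the siRNAs, against 175 CPM in the control. The isoleucine enzyme IARS had 339 CPM with siRNA-1 and 263 CPM with siRNA-2, against 689 CPM in the control.

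Antiviral genes, which cells switch on when interferon or viral RNA is sensed, included several of the lowest genes, yet the list was mixed. Of 37 members 23 were lower with both siRNAs, 16 at least 2-fold, and 5 were higher. The medians were -0.54 (siRNA-1) and -1.58 (siRNA-2). DESeq2 called 10 lower and 0 higher, against 271 and 44 of all 13162 genes. OASL, an inhibitor of viral replication, had 3.62 and 0.523 CPM with the siRNAs, against 101 CPM in the control, which is 3.59% and 0.52% of the control (intervals of the ratio 0.0291 to 0.0439 and 0.00284 to 0.00874). RSAD2, also known as viperin, had 3.98 CPM with siRNA-1 and 0.449 CPM with siRNA-2, against 42.5 CPM in the control. IFIT2, which binds viral RNA, had 27.0 and 10.3 CPM with the siRNAs, against 276 CPM in the control. Its relative IFIT1 had 25.1 CPM with siRNA-1 and 12.1 CPM with siRNA-2, against 156 CPM in the control. IFIT3, which stabilises IFIT1, had 17.3 and 8.19 CPM with the siRNAs, against 117 CPM in the control. IFI44 had 5.43 CPM with siRNA-1 and 6.13 CPM with siRNA-2, against 85.0 CPM in the control, at -3.67 ± 0.33 (SE), with adjusted p = 0.11 in limma-trend and 5.98e-17 in DESeq2. The ligase HERC5, which attaches ISG15, had 23.9 and 19.2 CPM with the siRNAs, against 174 CPM in the control. For OASL, RSAD2 and the IFIT genes siRNA-2 was the lower library, whereas IFI44 and HERC5 were close in both.

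Members of the list that carry the interferon signal were named after their values were seen. The transcription factor STAT2 had 112 CPM with siRNA-1 and 50.6 CPM with siRNA-2, against 60.3 CPM in the control. IRF7, usually induced by interferon, had 75.5 and 26.6 CPM with the siRNAs, against 34.0 CPM in the control. The 5 members above the control with both siRNAs were IRF1, PARP9, PARP12, IFIT5 and PML, by at most 0.82. Among 9 genes for type I and III interferons and their sensors 4 were lower with both and 0 higher (medians -0.14 and -0.33). IFNL1, a type III interferon, was listed at 0 with siRNA-1 and had 1 read with siRNA-2, against 75 reads (3.16 CPM) in the control. The RNA sensor IFIH1 had 40.7 CPM with siRNA-1 and 28.9 CPM with siRNA-2, against 129 CPM in the control. Of 19 antigen presentation genes 9 were lower and 6 higher (medians -0.16 and -0.24). The peptide transporter TAP1 was among the higher, with 161 and 104 CPM with the siRNAs, against 61.2 CPM in the control.

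The interferon-stimulated response element, searched as GAAANNGAAA on both strands, was in 3.57% of RefSeq promoters and in those of 20 of 28 antiviral genes with a promoter in the table. Of the 20 holders 14 were lower with both siRNAs, and of the 8 others 4 were. The upstream promoter of IFI44 is shown because the siRNA libraries lay close together for it and its adjusted p in DESeq2 was the smallest of all genes. Its 250 bases lie at chr1:78649539-78649788 on the plus strand (GRCh38.p14, 1 of 2 starts in the table), and the match, on the minus strand, is in capitals.
IFI44: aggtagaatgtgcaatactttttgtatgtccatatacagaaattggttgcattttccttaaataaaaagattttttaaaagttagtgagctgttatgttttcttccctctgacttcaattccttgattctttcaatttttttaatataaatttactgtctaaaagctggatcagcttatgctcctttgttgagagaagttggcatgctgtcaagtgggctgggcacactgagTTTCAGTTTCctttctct

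Inflammatory genes were lower beside the antiviral ones. Of 29 members of the NF-kB and cytokine list 18 were lower with both siRNAs, 12 at least 2-fold, and 5 were higher. The medians were -0.74 and -0.77, and DESeq2 called 8 lower, against 271 of all 13162 genes. The chemokine CCL5 had 1.45 CPM with siRNA-1 and 0.336 CPM with siRNA-2, against 36.2 CPM in the control. The cytokine IL6 had 5.21 and 1.68 CPM with the siRNAs, against 38.2 CPM in the control. The prostaglandin synthase PTGS2 had 20.9 CPM with siRNA-1 and 18.5 CPM with siRNA-2, against 120.0 CPM in the control. TNF had 14.3 and 14.02 CPM with the siRNAs, against 60.3 CPM in the control. CXCL1, which draws neutrophils, had 42.4 CPM with siRNA-1 and 39.8 CPM with siRNA-2, against 174 CPM in the control. CXCL2, its relative, had 8.72 and 15.3 CPM with the siRNAs, against 85.0 CPM in the control. CXCL8, the most studied of these chemokines, had 23.3 CPM with siRNA-1 and 41.8 CPM with siRNA-2, against 213 CPM in the control. The subunits and the inhibitor of NF-kB differed less. RELA had 209 and 175 CPM with the siRNAs, against 153 CPM in the control. NFKB1 had 73.5 CPM with siRNA-1 and 100.3 CPM with siRNA-2, against 123 CPM in the control. The inhibitor NFKBIA lay above the control in both, with 156 and 157 CPM with the siRNAs, against 109 CPM in the control.

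Immediate early factors, which respond within minutes to growth signals and stress, included some of the lowest genes. Of 26 members 15 were lower with both siRNAs, 9 at least 2-fold, and 3 were higher (medians -0.67 and -1.25). DESeq2 called 9 lower, against 271 of all 13162 genes. FOS, a partner in the AP-1 dimer, had 11.3 CPM with siRNA-1 and 5.12 CPM with siRNA-2, against 212 CPM in the control, at -4.62 ± 0.56 (SE), with adjusted p = 0.115 in limma-trend and 1.95e-11 in DESeq2. Its relative FOSB had 21.1 and 5.72 CPM with the siRNAs, against 130.0 CPM in the control. The zinc finger factor EGR1 had 80.0 CPM with siRNA-1 and 46.6 CPM with siRNA-2, against 594 CPM in the control. KLF4 had 15.5 and 31.0 CPM with the siRNAs, against 141 CPM in the control. The secreted factor CTGF had 69.6 CPM with siRNA-1 and 66.5 CPM with siRNA-2, against 531 CPM in the control. MYC was close to the control, with 133 and 189.6 CPM with the siRNAs, against 172 CPM in the control. FOSL1, a FOS relative that carcinoma lines often use, had 453 CPM with siRNA-1 and 348 CPM with siRNA-2, against 436 CPM in the control. NR4A2 was above the control with siRNA-1 and below it with siRNA-2, with 57.9 and 6.73 CPM with the siRNAs and 32.8 CPM in the control. Of 21 MAPK feedback regulators 12 were lower and 3 higher (medians -0.15 and -0.46). The MAP kinase phosphatase DUSP1 had 173 and 70.5 CPM with the siRNAs, against 441 CPM in the control. DUSP6, which acts on ERK, had 19.3 CPM with siRNA-1 and 22.8 CPM with siRNA-2, against 66.4 CPM in the control.

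The CArG box, the site of the serum response factor SRF, was in 1.29% of promoters and in those of 2 of 20 members, EGR1 and SRF itself. SRF had 229 and 125 CPM with the siRNAs, against 140.4 CPM in the control. The upstream promoter of EGR1 (chr5:138465229-138465478, plus strand, GRCh38.p14) is shown because it held 2 boxes, in capitals, the first beginning 105 bases before the start.
EGR1: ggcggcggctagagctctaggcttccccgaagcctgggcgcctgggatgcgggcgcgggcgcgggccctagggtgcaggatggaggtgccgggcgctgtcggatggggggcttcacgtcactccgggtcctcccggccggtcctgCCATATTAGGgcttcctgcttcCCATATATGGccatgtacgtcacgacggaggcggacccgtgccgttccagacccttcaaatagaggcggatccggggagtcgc

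**Figure D2:**
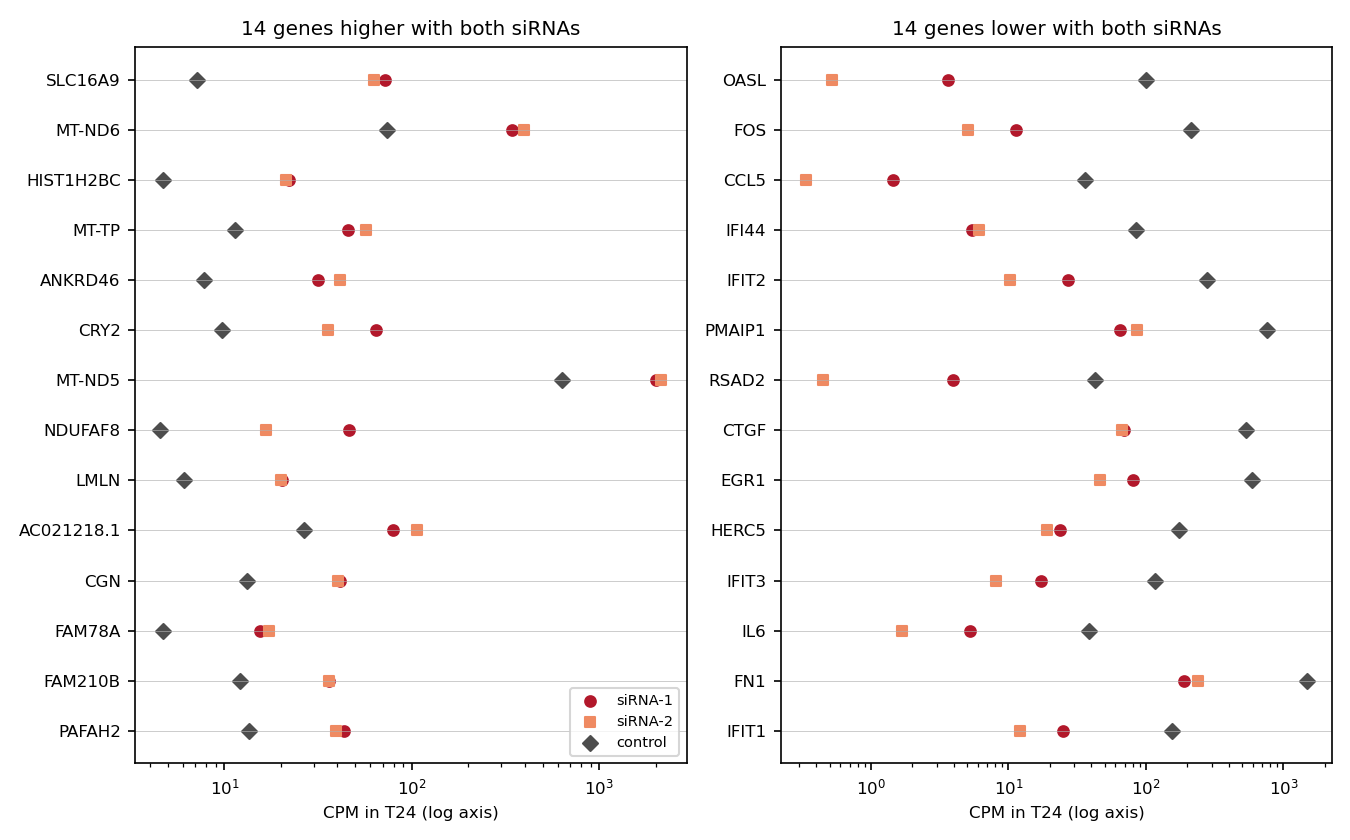
CPM in the 3 T24 libraries (log axis) of the 14 genes highest (left) and the 14 lowest (right) by the smaller of the differences with the siRNAs, among genes with a mean of at least 10 CPM. By that choice the siRNA libraries lie on the same side of the control in all 28 genes. OASL has 3.62 and 0.523 CPM with the siRNAs and 101 CPM in the control, and SLC16A9 has 71.8 and 62.8 CPM and 7.13 CPM.

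The mitosis list, of genes that carry out cell division, was lower throughout. All 47 tested members of the mitosis list were lower with both siRNAs, 32 of them at least 2-fold, with medians of -1.40 (siRNA-1) and -1.30 (siRNA-2), and the count was 47 with TMM scaling too. DESeq2 called 271 of all 13162 genes lower, and 27 of the 47 members. Whether fewer dividing cells were present or each held less of these RNAs cannot be told apart in bulk libraries. TPX2, which nucleates spindle microtubules, had 110.4 CPM with siRNA-1 and 105 CPM with siRNA-2, against 478 CPM in the control, at -2.14 ± 0.27 (SE), with adjusted p = 0.115 in limma-trend. The kinetochore motor CENPE had 36.7 and 39.8 CPM with the siRNAs, against 135 CPM in the control. The kinesin KIF18A had 17.8 CPM with siRNA-1 and 20.6 CPM with siRNA-2, against 70.5 CPM in the control. TOP2A, which untangles chromosomes, had 111 and 193 CPM with the siRNAs, against 637 CPM in the control. The proliferation marker MKI67 had 101 CPM with siRNA-1 and 224 CPM with siRNA-2, against 640.3 CPM in the control. The kinase CDK1 had 63.9 and 41.1 CPM with the siRNAs, against 186 CPM in the control. CENPF differed most between the siRNAs, with 23.2 CPM with siRNA-1 and 153 CPM with siRNA-2, against 374 CPM in the control, and BUB3, a checkpoint protein, had the smallest mean difference, with 143 and 159 CPM with the siRNAs, against 207 CPM in the control.

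Genes of DNA replication were lower by less. Of 43 members 38 were lower with both siRNAs, 11 at least 2-fold, and 2 were higher, with medians of -0.92 and -0.85. DESeq2 called 8 lower, against 271 of all 13162 genes. CDC6, which loads the replicative helicase, had 56.4 CPM with siRNA-1 and 61.7 CPM with siRNA-2, against 175 CPM in the control. MCM10, which helps to start it, had 9.59 and 10.8 CPM with the siRNAs, against 35.9 CPM in the control. UHRF1, which reads methylated DNA at the fork, had 30.1 CPM with siRNA-1 and 71.4 CPM with siRNA-2, against 182 CPM in the control. Of 24 homologous recombination and Fanconi genes 20 were lower and 1 higher (medians -0.84 and -1.03). RAD54L, a motor of strand exchange, had 4.99 and 5.23 CPM with the siRNAs, against 17.8 CPM in the control. The helicase BLM had 15.9 CPM with siRNA-1 and 13.9 CPM with siRNA-2, against 39.3 CPM in the control. The 1 higher with both siRNAs, FANCF, was at least 2-fold higher, with 18.7 and 20.002 CPM with the siRNAs, against 8.82 CPM in the control. Of 17 E2F and RB genes 11 were lower and 2 higher (medians -0.72 and -0.70). The repressor E2F8 had 5.93 CPM with siRNA-1 and 7.40 CPM with siRNA-2, against 28.4 CPM in the control. The activator E2F1 had 14.1 and 18.8 CPM with the siRNAs, against 46.3 CPM in the control. The mitotic factor FOXM1 had 105 CPM with siRNA-1 and 117 CPM with siRNA-2, against 218 CPM in the control. Of 15 G1 cyclins, CDKs and inhibitors 10 were lower and 2 higher (medians -0.69 and -0.49), and the CDK inhibitor CDKN1A was itself lower, with 199 and 216 CPM with the siRNAs, against 409.7 CPM in the control.

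The cell cycle homology region TTTGAA, a short element of mitotic promoters, was in 15.2% of RefSeq promoters, and 30 of 40 mitosis genes with a promoter in the table held it. As every member was lower with both siRNAs, holders (30 of 30) and others (10 of 10) did not differ in direction. KIF18A is shown as an example with 1 match, which begins 10 bases before the start (250 bases, chr11:28108157-28108406, minus strand, GRCh38.p14).
KIF18A: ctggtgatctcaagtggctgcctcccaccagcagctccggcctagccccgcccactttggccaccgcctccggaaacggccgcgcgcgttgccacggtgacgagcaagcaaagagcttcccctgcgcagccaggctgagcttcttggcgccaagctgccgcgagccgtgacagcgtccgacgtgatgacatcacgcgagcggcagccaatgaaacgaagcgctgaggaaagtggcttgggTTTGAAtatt

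Matrix, adhesion and lymphatic genes bear on the spread through lymphatic vessels that the title names. Of 15 lymphatic growth factors and receptors 11 were lower with both siRNAs, 4 at least 2-fold, and 1, ANGPTL4, was higher. The medians were -1.35 and -0.86, and DESeq2 called 3 lower, against 271 of all 13162 genes. NRP2, a co-receptor of VEGF-C, had 1.92 CPM with siRNA-1 and 2.13 CPM with siRNA-2, against 14.8 CPM in the control, at -2.38 ± 0.33 (SE), with adjusted p = 0.132 in limma-trend. VEGFC had 19.2 and 8.97 CPM with the siRNAs, against 31.0 CPM in the control. VEGFA had 57.5 CPM with siRNA-1 and 122 CPM with siRNA-2, against 233 CPM in the control. The peptide hormone ADM had 32.6 and 30.3 CPM with the siRNAs, against 102 CPM in the control. The guidance factor SEMA3C had 176 CPM with siRNA-1 and 181 CPM with siRNA-2, against 474 CPM in the control. SEMA3A lay on opposite sides, with 6.12 and 25.5 CPM with the siRNAs and 17.1 CPM in the control. Of 32 extracellular matrix genes 16 were lower and 4 higher (medians -0.63 and -0.27). Fibronectin, FN1, had 189.5 and 238 CPM with the siRNAs, against 1481 CPM in the control. The anchoring collagen COL7A1 had 4.99 CPM with siRNA-1 and 4.45 CPM with siRNA-2, against 25.0 CPM in the control. Tenascin, TNC, which is sparse in resting tissue, had 6.01 and 9.42 CPM with the siRNAs, against 34.5 CPM in the control. Of 19 plasminogen activators, proteases and serpins 11 were lower and 1 higher (-0.64 and -0.45). The activator PLAT had 14.8 CPM with siRNA-1 and 24.5 CPM with siRNA-2, against 47.9 CPM in the control. The other activator, PLAU, had 244 and 185 CPM with the siRNAs, against 366 CPM in the control.

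Of 12 factors and cadherins of epithelial to mesenchymal transition 8 were lower with both siRNAs, 4 at least 2-fold, and 0 higher (medians -1.09 and -0.47), while with TMM scaling 10 were lower. SNAI1, a repressor of E-cadherin, had 1.23 CPM with siRNA-1 and 0.598 CPM with siRNA-2, against 5.31 CPM in the control. The mesenchymal cadherin CDH2 had 37.7 and 30.9 CPM with the siRNAs, against 77.4 CPM in the control. Vimentin, VIM, had 96.9 CPM with siRNA-1 and 187 CPM with siRNA-2, against 295 CPM in the control. The list holds epithelial genes as well. CLDN4, a tight junction protein, had 1.05 and 0.972 CPM with the siRNAs, against 3.59 CPM in the control. Keratins and urothelial markers had 7 of 9 lower and 0 higher (-1.01 and -0.50). KRT17, a keratin of basal and wounded epithelium, had 1 read with each siRNA, against 326 in the control (13.8 CPM), a ratio of 0.00263 with siRNA-1 (95% counting interval 6.6e-05 to 0.0148) and 0.00272 with siRNA-2 (6.9e-05 to 0.0153). KRT17 has near-identical copies, so its reads are uncertain. Integrins and focal adhesion genes had 8 higher and 8 lower of 23 (medians -0.22 and 0.10), and YAP and SRF targets 7 and 7 of 24 (0.09, or -0.05 with TMM scaling, and -0.09). Of 9 EGFR ligands and receptors 5 were lower and 1, HBEGF, was higher (-0.76 and -0.41).

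**Figure D3:**
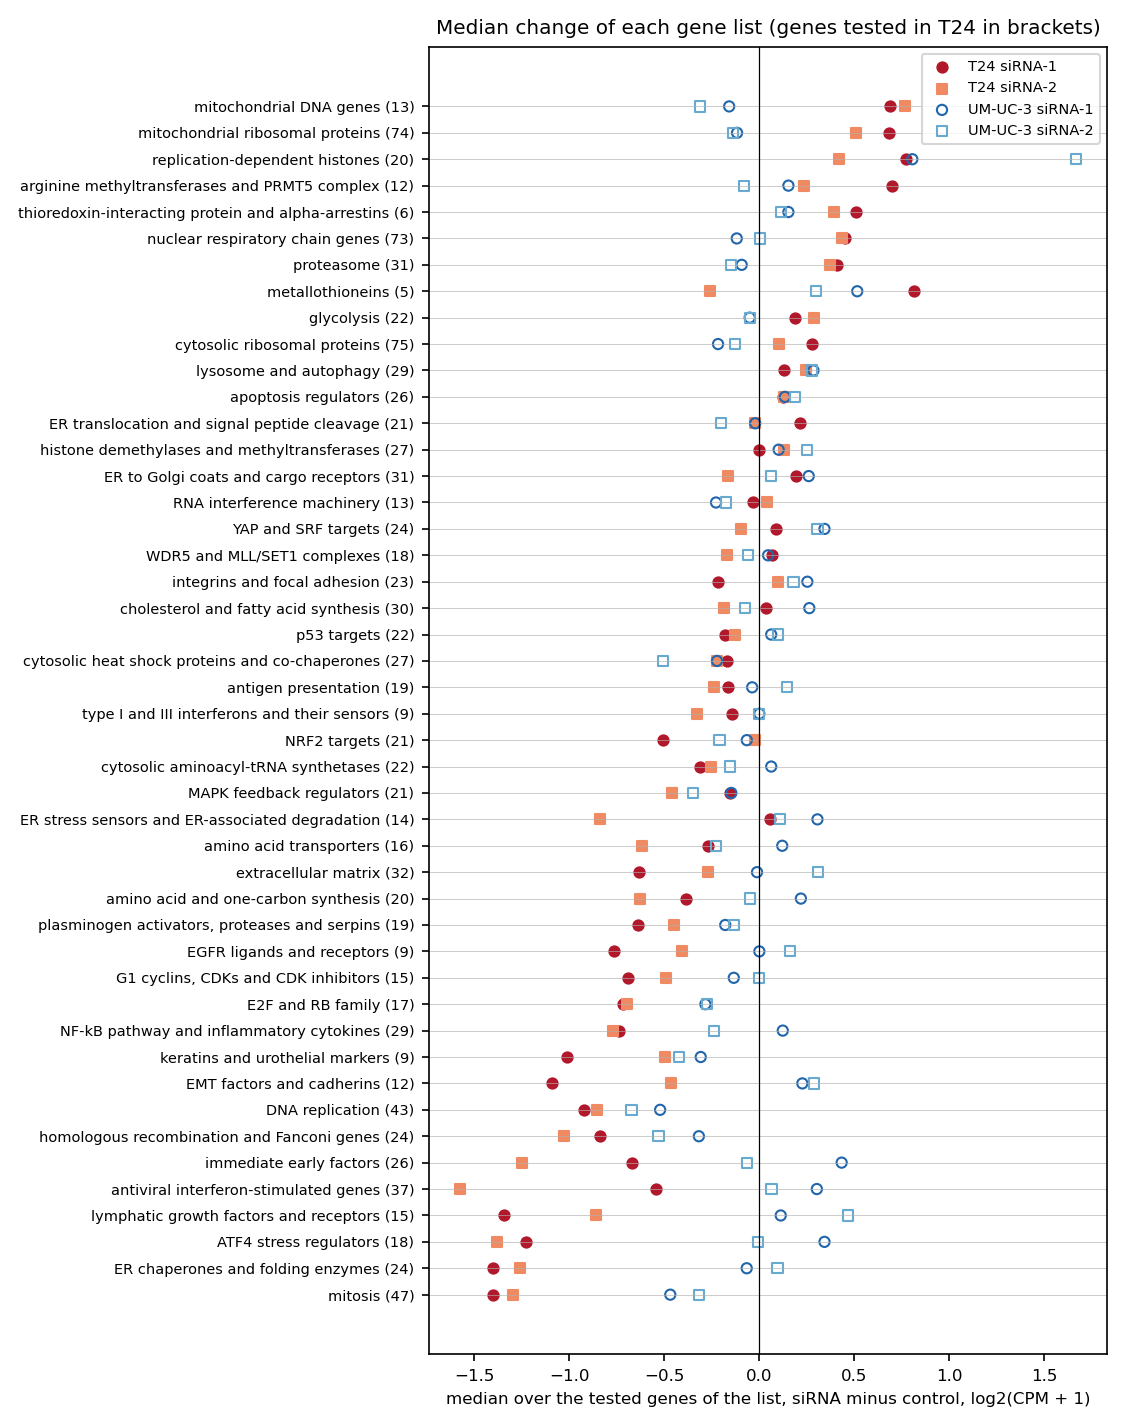
Median difference from the control, in log2(CPM + 1), over the tested genes of each list with at least 5 of them. The heat shock factors and the markers of other cells had fewer and are not drawn. T24 siRNA-1 and siRNA-2 are filled symbols and UM-UC-3 open ones, ordered by the T24 mean. Mitosis, ER chaperones and ATF4 regulators are at the low end in T24 (-1.40 and -1.30 for mitosis), and mitochondrial DNA genes and mitochondrial ribosomal proteins at the high end (0.69 and 0.77 for mitochondrial DNA).

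The lists, chosen with earlier results of these data known, held 13 of the 188 higher 2-fold genes and 155 of the 497 lower ones. Genes at least 2-fold higher with both siRNAs were fewer than those 2-fold lower. SLC16A9, a transporter of the monocarboxylate family, led them with 71.8 CPM with siRNA-1 and 62.8 CPM with siRNA-2, against 7.13 CPM in the control, or ratios of 10.1 (95% counting interval 8.61 to 11.9) and 8.82 (7.52 to 10.4). Its difference was 3.07 ± 0.34 (SE), with adjusted p = 0.11 in limma-trend and 7.16e-10 in DESeq2. The circadian repressor CRY2 had 64.1 and 35.8 CPM with the siRNAs, against 9.66 CPM in the control. NDUFAF8, an assembly factor of respiratory complex I, had 46.2 CPM with siRNA-1 and 16.7 CPM with siRNA-2, against 4.56 CPM in the control. CGN, a tight junction protein, had 41.2 and 40.2 CPM with the siRNAs, against 13.2 CPM in the control. PAFAH2, which cleaves oxidized phospholipids, had 43.4 CPM with siRNA-1 and 39.6 CPM with siRNA-2, against 13.6 CPM in the control. In CGN and PAFAH2 the siRNA libraries lay close together, whereas in CRY2 and NDUFAF8 siRNA-1 was the higher. ANKRD46 had 31.7 and 41.2 CPM with the siRNAs, against 7.80 CPM in the control. LMLN, an invadolysin-type peptidase, had 20.4 CPM with siRNA-1 and 19.9 CPM with siRNA-2, against 6.07 CPM in the control. FAM78A had 15.5 and 17.4 CPM with the siRNAs, against 4.72 CPM in the control. FAM210B, a mitochondrial protein, had 36.3 CPM with siRNA-1 and 36.2 CPM with siRNA-2, against 12.1 CPM in the control. AC021218.1, a transcript named by its clone, had 79.8 and 107 CPM with the siRNAs, against 26.7 CPM in the control.

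The lists of mitochondrial genes lay above the control, by less than 2-fold for most members. Of 13 protein-coding genes of mitochondrial DNA 12 were higher with both siRNAs, 3 at least 2-fold, and 0 were lower (medians 0.69 and 0.77). With TMM scaling 11 were higher and 2 lower. The genes did not differ equally. MT-ND6, the complex I subunit encoded on the light strand, had 342 CPM with siRNA-1 and 395 CPM with siRNA-2, against 73.4 CPM in the control. MT-ND5 had 2017 and 2149 CPM with the siRNAs, against 631 CPM in the control. MT-ND1 had 2394 CPM with siRNA-1 and 2334 CPM with siRNA-2, against 1094 CPM in the control. In these 3 both siRNA libraries were above the control and close to each other. MT-CO1, a catalytic subunit of complex IV, was near the control, with 7207 and 6898 CPM with the siRNAs, against 6778 CPM in the control. MT-ATP8, of the ATP synthase, was near it too, with 6.77 CPM with siRNA-1 and 6.36 CPM with siRNA-2, against 6.58 CPM in the control. MT-TP, a transfer RNA gene on the light strand, had 45.5 and 56.7 CPM with the siRNAs, against 11.3 CPM in the control. MT-ND6 and MT-ND5 were called higher by DESeq2 (adjusted p = 5.79e-06 and 0.00117) and not by limma-trend (0.115 and 0.156). MT-ND5 and MT-ND6 lie on opposite strands and their transcripts overlap with those of the other strand, and whether reads were counted by strand was not stated, so reads of the pair may be mixed.

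**Figure D4:**
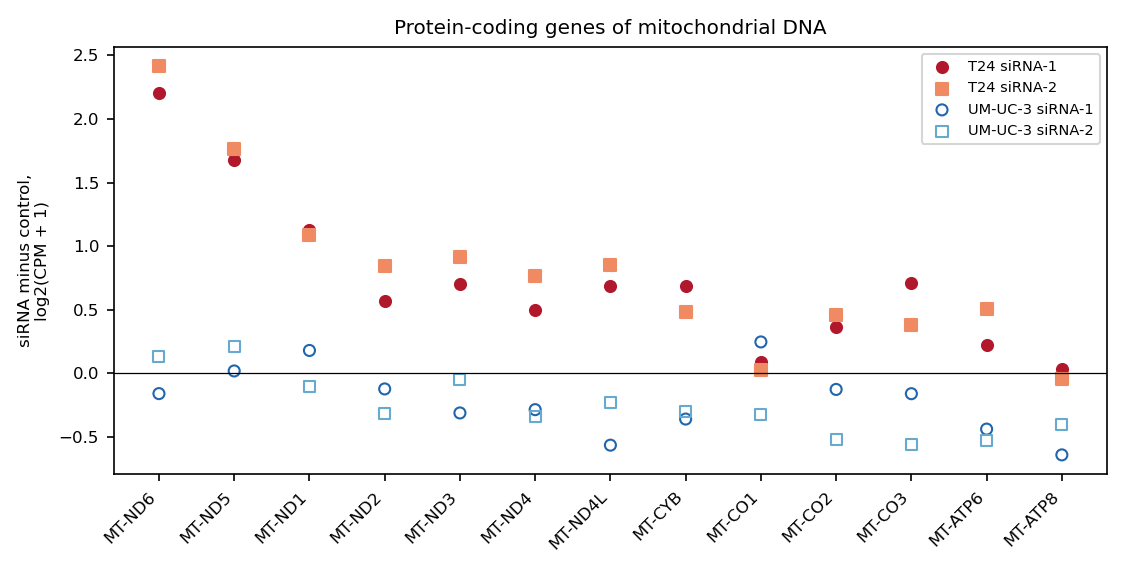
Difference from the control of the 13 protein-coding genes of mitochondrial DNA, in log2(CPM + 1), with T24 siRNA libraries filled and UM-UC-3 siRNA libraries open. In T24 MT-ND6 lies at 2.20 and 2.41 and MT-CO1 at 0.09 and 0.03. In UM-UC-3 MT-ND6 lies at -0.16 and 0.14.

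Nuclear genes for mitochondrial proteins were shifted upward in number more than in size. Of 74 mitochondrial ribosomal proteins 60 were higher with both siRNAs and 3 lower (medians 0.68 and 0.51, and 0.56 and 0.48 with TMM scaling), with 2 at least 2-fold higher, MRPS31 and MRPL41. MRPS31 had 43.5 CPM with siRNA-1 and 40.5 CPM with siRNA-2, against 17.8 CPM in the control. MRPL41 had 90.7 and 86.7 CPM with the siRNAs, against 40.7 CPM in the control. Of 73 nuclear respiratory chain genes 59 were higher and 1 lower (0.45 and 0.43), and 0 reached 2-fold with both. CYC1, cytochrome c1 of complex III, came nearest to it, with 332 CPM with siRNA-1 and 267 CPM with siRNA-2, against 133 CPM in the control. These shares compare with 39.4% of all genes higher with both, and 0 members of either list passed by limma-trend or DESeq2. Of 49 import and assembly genes picked by their symbols after their values were seen (TIMM, TOMM, NDUFAF, COA, SCO and COX10 to COX19) 35 were higher and 3 lower.

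Other lists with more members above than below the control were smaller in size of difference. Of 31 proteasome subunits 22 were higher and 1 lower (medians 0.41 and 0.37). The core subunit PSMB2 had 359.6 and 361 CPM with the siRNAs, against 203 CPM in the control. The catalytic subunit PSMB5 had 183 CPM with siRNA-1 and 162 CPM with siRNA-2, against 97.0 CPM in the control. Of 75 cytosolic ribosomal proteins 44 were higher and 8 lower, or 35 and 16 with TMM scaling, at medians of 0.28 and 0.10 (0.14 and 0.07 with TMM scaling). RPL22, of the large subunit, had 87.0 and 84.6 CPM with the siRNAs, against 53.9 CPM in the control. RPL15, of the same subunit, had 1064 CPM with siRNA-1 and 1089 CPM with siRNA-2, against 743 CPM in the control. RPL3 was lower with both siRNAs, mostly with siRNA-1, with 488 and 1466 CPM with the siRNAs, against 1750.3 CPM in the control. Ribosomal protein genes have many near-identical copies, which makes their counts uncertain. Of 12 arginine methyltransferases and PRMT5 partners 9 were higher and 0 lower (0.70 and 0.24). PRMT6, which methylates histone H3, had 65.5 CPM with siRNA-1 and 43.0 CPM with siRNA-2, against 19.4 CPM in the control. WDR77, the partner of PRMT5, had 55.2 and 38.4 CPM with the siRNAs, against 20.5 CPM in the control. Of 20 replication-dependent histone genes 11 were higher and 5 lower (0.77 and 0.42), with HIST1H2BC, HIST1H2BD and HIST1H2AC at least 2-fold higher. HIST1H2BC had 22.1 CPM with siRNA-1 and 21.3 CPM with siRNA-2, against 4.68 CPM in the control. HIST1H2AE was the lowest, with 1.45 and 0.935 CPM with the siRNAs, against 3.04 CPM in the control. In UM-UC-3 all 20 were higher with both siRNAs, at medians of 0.81 and 1.67. Histone genes are near copies, which makes the counts of single members uncertain. Glycolysis had 12 higher and 3 lower of 22 (0.19 and 0.29), and the glucose transporter SLC2A1 was among the lower, with 57.4 CPM with siRNA-1 and 108 CPM with siRNA-2, against 194 CPM in the control. ARRDC3, an alpha-arrestin, had 112 and 162 CPM with the siRNAs, against 44.3 CPM in the control. Its list of 6 had 3 higher and 2 lower (0.51 and 0.39).

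The remaining lists were mixed or lay close to the control. Lysosome and autophagy genes had 15 higher and 3 lower of 29 (medians 0.13, or -0.01 with TMM scaling, and 0.25), and cholesterol and fatty acid synthesis 4 higher and 9 lower of 30 (0.03, or -0.10 with TMM scaling, and -0.18). NRF2 targets had 6 higher and 10 lower of 21 (-0.51 and -0.02), with heme oxygenase HMOX1 at 758 CPM with siRNA-1 and 976 CPM with siRNA-2, against 369.9 CPM in the control. Of 22 p53 targets 9 were higher and 12 lower (-0.18 and -0.13), and of 26 apoptosis regulators 11 were higher and 7 lower (0.12, or -0.01 with TMM scaling, and 0.13). PMAIP1, which belongs to both and opposes BCL2 proteins, had 64.2 and 85.5 CPM with the siRNAs, against 761 CPM in the control. The p53 target SESN1 was at least 2-fold higher, with 13.3 CPM with siRNA-1 and 13.9 CPM with siRNA-2, against 5.74 CPM in the control, and its relative SESN2 was lower, with 79.5 and 69.1 CPM with the siRNAs, against 229 CPM in the control. WDR5 and MLL/SET1 complex genes had 6 higher and 6 lower of 18 (0.06, or -0.07 with TMM scaling, and -0.17). Histone demethylases and methyltransferases had 12 higher and 9 lower of 27 (0.00, and -0.13 with TMM scaling, for siRNA-1 and 0.13 for siRNA-2). Within these, the H3K27 methyltransferase EZH2 had 68.3 CPM with siRNA-1 and 53.8 CPM with siRNA-2, against 141 CPM in the control. The H3K27 demethylase KDM6B had 247 and 144 CPM with the siRNAs, against 74.0 CPM in the control. RNA interference genes had 6 higher and 6 lower of 13 (-0.03 and 0.04, or -0.17 and 0.01 with TMM scaling), and the list of metallothioneins, their regulator and a zinc transporter had 2 higher and 1 lower of 5 (0.81 and -0.26). The 2 higher were the regulator MTF1 and the zinc transporter SLC30A1. The 1 lower with both was the metallothionein MT1X, with 2.61 CPM with siRNA-1 and 1.27 CPM with siRNA-2, against 3.42 CPM in the control.

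Where the siRNAs disagreed, they did so by large amounts in a few genes. There were 18 genes 2-fold from the control in opposite directions. HIPK2, a kinase that phosphorylates p53, had 62.7 and 641 CPM with the siRNAs, against 307 CPM in the control. SOX4, a transcription factor, had 3.51 CPM with siRNA-1 and 46.4 CPM with siRNA-2, against 12.9 CPM in the control. Both were low with siRNA-1 and high with siRNA-2. The histone demethylase KDM1B had 139 and 19.7 CPM with the siRNAs, against 63.4 CPM in the control. TOMM34, a protein of mitochondrial import, had 277 CPM with siRNA-1 and 49.95 CPM with siRNA-2, against 102 CPM in the control. For both of these the order was the other way round. These 4 were chosen after their values were seen. At the limit of the 2-fold description, TRUB2 was just inside on the higher side, at 1.001 for the smaller of its differences, and RAB38 just outside, at 0.9996. On the lower side MTHFD1L was just inside at -1.0002 and USP1 just outside at -0.997. Of the 188 higher genes 46 had a mean under 10 CPM, as had 167 of the 497 lower ones. Protein-coding genes made up 175 of the 188 and 457 of the 497, against 11477 of the 13162 tested.

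Few of the 2-fold genes of T24 were 2-fold in UM-UC-3, whose control is a separate library. In UM-UC-3 96 genes were at least 2-fold higher with both siRNAs (0.715% of 13433) and 28 lower (0.208%). Shared on the higher side were 5 genes, AC048341.1, FAM210B, HIST1H2AC, HIST1H2BD and PRKAR1B, which is 2.66% of the T24 genes and 5.21% of the UM-UC-3 ones. Shared on the lower side were 4, HSF1, CA2, CELSR2 and RAB27B, or 0.805% and 14.3%. HSF1 was lowered by less in UM-UC-3, with 50.3 and 36.5 CPM with the siRNAs and 138 CPM in the control. Its differences were -1.43 and -1.88 there, against -2.33 and -2.18 in T24. CA2, a carbonic anhydrase, had 0.145 and 0.449 CPM with the siRNAs, against 6.03 CPM in the control in T24, and 5.205 and 3.96 CPM with the siRNAs and 13.4 CPM in the control in UM-UC-3. PRKAR1B, which holds protein kinase A inactive, had 96.4 CPM with siRNA-1 and 75.1 CPM with siRNA-2, against 32.0 CPM in the control in T24, and 13.2 and 12.8 CPM with the siRNAs and 4.88 CPM in the control in UM-UC-3. By direction alone, 111 of the 188 higher genes were also higher with both siRNAs in UM-UC-3 and 27 were lower with both. Of the 497 lower genes 245 were lower with both there and 100 were higher with both. Over all 13162 genes 5105 (38.8%) were higher and 3896 (29.6%) lower with both siRNAs in UM-UC-3. NDRG1, ID2, C3, DDIT4 and OLFML2A were 2-fold lower in T24 and 2-fold higher in UM-UC-3.

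The difference between the lines was tested for 11969 genes with a contrast in the same limma-trend fit. None passed (0 of 11969, 0.0%, smallest adjusted p 0.949), with 170 more positive and 369 more negative in T24 at an unadjusted p under 0.05. edgeR called 0 as well, with 552 at an unadjusted p under 0.05, and DESeq2 called 37, of which 34 were more negative in T24. With the replicate block limma-trend called 71. The 10 genes given next were chosen as the most negative or positive in this same difference. All of them passed limma-trend with the block except GPCPD1 (adjusted p = 0.0722). Among genes with a mean of at least 10 CPM in both lines, the most negative differences were those of IFIT2 (-4.10 ± 0.79), ID2 (-4.07 ± 0.58), IFIT1 (-3.81 ± 0.77), DDIT4 (-3.77 ± 0.41) and IFI44 (-3.46 ± 0.46). ID2, an inhibitor of differentiation factors, had 15.2 and 8.82 CPM with the siRNAs, against 63.4 CPM in the control in T24, and 159 and 212 CPM with the siRNAs and 55.2 CPM in the control in UM-UC-3. DDIT4 had 72.8 and 79.7 CPM with the siRNAs and 25.5 CPM in the control in UM-UC-3. The most positive were FP236383.3 (3.28 ± 0.57), MT-ND6 (2.32 ± 0.40), FAM234B (2.25 ± 0.56), ODC1 (1.997 ± 0.45) and GPCPD1 (1.97 ± 0.67). ODC1, the first enzyme of polyamine synthesis, had 675 CPM with siRNA-1 and 743 CPM with siRNA-2, against 259.6 CPM in the control in T24, and 394 and 275 CPM with the siRNAs and 483 CPM in the control in UM-UC-3. FP236383.3 was near its control in T24, with 19.3 and 17.7 CPM with the siRNAs and 17.0 CPM in the control, and low in UM-UC-3, with 3.59 and 6.21 CPM with the siRNAs and 50.4 CPM in the control. OASL, FOS and EGR1 were at low levels in every UM-UC-3 library. OASL had 3.19 and 0.386 CPM with the siRNAs and 3.64 CPM in the control of UM-UC-3. FOS had 4.40 and 2.105 CPM with the siRNAs and 2.40 CPM in the control of that line. EGR1 had 3.01 and 2.39 CPM with the siRNAs and 3.12 CPM in the control there. HSPA5 had 644 and 629.9 CPM with the siRNAs and 556 CPM in the control in UM-UC-3, and the ER chaperone medians there were -0.07 and 0.10. For mitosis they were -0.47 and -0.32, with 44 of the list lower with both siRNAs.

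**Figure D5:**
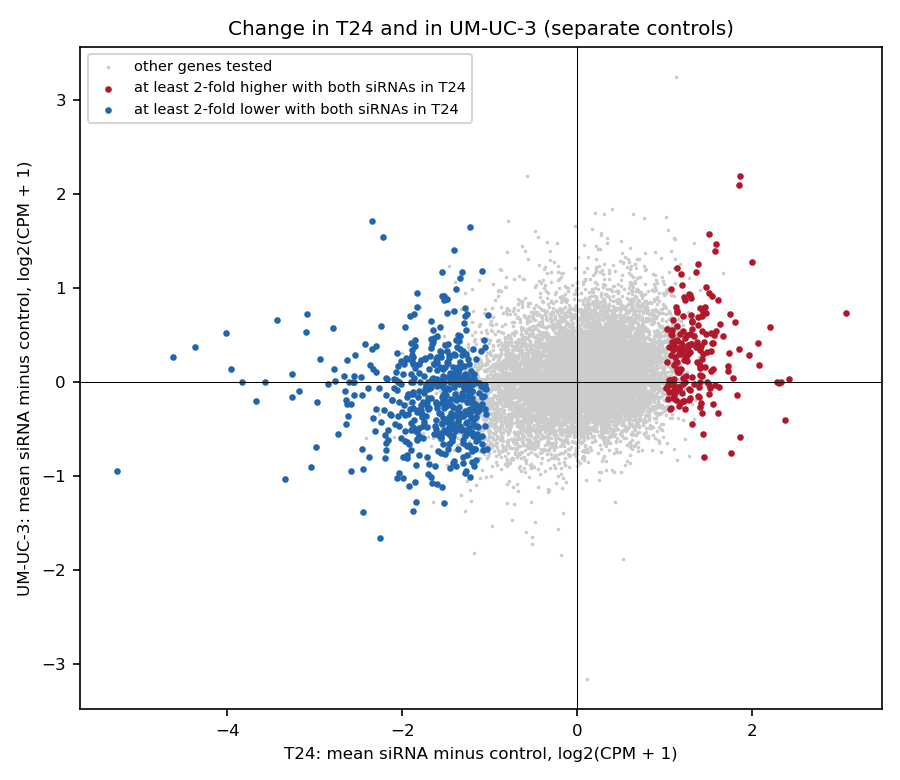
Each point is a gene, placed by its mean siRNA difference from the control in T24 (x axis) and in UM-UC-3 (y axis), in log2(CPM + 1). The 188 genes at least 2-fold higher with both siRNAs in T24 (red) and the 497 lower (blue) are coloured. On the UM-UC-3 axis 111 of the red genes were higher with both siRNAs and 27 lower, and 245 of the blue genes were lower and 100 higher.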

How the data were processed

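RNA from 3 T24 and 3 UM-UC-3 libraries was sequenced as 100-bp paired-end Illumina reads, per the labels' protocols. Per the submitters' processing notes, bcl2fastq 2.19.1, HISAT2 2.1.0 and HTSeq 0.6.1 were used with builds hg19 and GRCh37 (the role of each was not stated). The authors deposited 1 table per library with gene values normalized to CPM of gene-assigned reads. At a tolerance of 0.01 read, 100% of the listed values were whole reads, or the 0.5 read that stands for a count of 0. The reads thus recovered gave library totals of 23709089 to 28504833, 1 read being worth 0.0362 (siRNA-1), 0.0374 (siRNA-2) and 0.0422 CPM (control) in T24. Files were joined by Ensembl ID, with a gene missing from a file set to 0 (1042, 1326 and 1042 values in T24 siRNA-1, siRNA-2 and the control). Names stored as dates (23 in T24) were restored by Ensembl ID.

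Tests used limma-trend 3.58.1 (R 4.3.3) on log2(CPM + 1) over all 6 libraries with 4 group means, so that both siRNA libraries of a line served as replicates, two-sided, with Benjamini-Hochberg adjustment over the 13162 genes whose T24 mean reached 1 CPM. edgeR 4.0.16 and DESeq2 1.42.0 were run on the recovered reads as alternatives. The limma-trend script was tested on simulated data. Intervals of single ratios are exact binomial ones at 95% and cover counting error only. Lists (48, with 1262 members found) and the comparisons were chosen with earlier results of these data known. Some genes are in more than 1 list, among them CALR, FN1, CTGF, GDF15 and SESN2, so the lists are not separate observations. Genes were named by rule: HSF1, PRMT5 and WDR5, the 15 highest and 15 lowest at a mean of at least 10 CPM by the smaller of the differences with the siRNAs, up to 5 members of each list by the same measure, and the 5 most positive and 5 most negative differences between lines. Members named beyond this rule (those against a list's direction, or best known in it) were chosen after their values were seen. Promoters come from RefSeq on GRCh38.p14, which is not the build of the files, and were matched by gene. Pictures were drawn with matplotlib 3.10.9. Some items the rule names are not reported here.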

Additional observations from a re-analysis of the deposited data

Results flagged for a closer look

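Of the lists, 5 had siRNA medians on opposite sides of 0 in T24 and UM-UC-3, with all 4 medians at least 0.1 from 0. The difference between the lines was not tested for lists, and each line has its own single control. Mitochondrial DNA genes differed by 0.963 (T24 minus UM-UC-3, mean of the siRNA medians), with 0.69 and 0.77 in T24 and -0.16 and -0.31 in UM-UC-3. Mitochondrial ribosomal proteins differed by 0.725, with 0.68 and 0.51 in T24 and -0.12 and -0.14 in UM-UC-3. Cytosolic ribosomal proteins differed by 0.364, with 0.28 and 0.10 in T24 (0.14 and 0.07 with TMM scaling) and -0.22 and -0.13 in UM-UC-3. Lymphatic growth factors and receptors differed by -1.391, with -1.35 and -0.86 in T24 and 0.11 and 0.47 in UM-UC-3. EMT factors and cadherins differed by -1.037, with -1.09 and -0.47 in T24 and 0.23 and 0.29 in UM-UC-3.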

How the results depend on the processing

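No gene passed the threshold with edgeR under either scaling, nor with limma-trend under another pseudocount, other filters, the T24 libraries alone or any siRNA library left out (range 0 to 0). DESeq2 called 315 genes, and limma-trend with a replicate block for the siRNA number called 752 (167 higher, 585 lower). For the difference between lines these gave 37 and 71. The siRNA libraries of both lines carry the siRNA's own number in the labels, and same-numbered ones deviated together across genes (Pearson's r 0.427). The 685 genes at 2-fold became 373 with a pseudocount of 5, and 1432 to 2232 when either siRNA library alone was used. With TMM scaling they were 136 higher and 582 lower, in place of 188 and 497. Lists with both medians at least 0.5 from 0 numbered 12, against 15 to 23 when either library alone was used. The 30 genes highest and lowest kept their direction under each alternative, which follows largely from their choice as far from the control with both siRNAs. TMM scaling moved the medians of 17 of 47 lists by more than the SD between the siRNAs and changed the sign of 6 lists' medians, as given with those lists. With 1 control library, no alternative leaves that control out. DESeq2's adjusted p, but not that of limma-trend, passed for 84 of 238 genes named by the rule. Most of these were named for the size of their difference in the same libraries, and over all genes DESeq2 called 2.39%.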

Other observations

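Gene groups picked by their symbols after values were seen, and so described with no test, add a few patterns. Of 31 RNA polymerase subunits (POLR symbols) 21 were higher with both siRNAs and 2 lower, at medians of 0.73 and 0.25. Of 425 numbered zinc finger genes (ZNF symbols), many of them DNA-binding repressors, 202 were higher and 78 lower, at medians of 0.34 and 0.05, and at 0.21 and 0.02 with TMM scaling. Of 22 centromere proteins (CENP symbols) 17 were lower and 2 higher, 4 of them at least 2-fold lower (-0.46 and -0.68). Of 59 RAB GTPases, which steer vesicle traffic, 31 were higher and 6 lower (0.32 and 0.34). Over all genes tested 39.4% were higher and 29.7% lower with both siRNAs.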
